A study of Mus musculus with 8 samples.

Results

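Immediate-early genes and the genes of the AP-1 transcription factor were followed through 8 mouse colonic tumors, each measured on 1 expression array. The 10 genes were Egr1, Fos, Fosb, Fosl1, Jun, Junb, Ier2, Ier3, Atf3 and Emp1. They were chosen by name as array rows annotated with exactly 1 gene symbol, and all 10 were found among 19938 genes so annotated, each with 1 probe set. The 3 groups were tumors of mice labelled K-rasG12Dint (3 arrays), LSL-K-rasG12D/+ (2 arrays) and K-rasG12Dint/Ink4a/Arf-/- (3 arrays). They are called here K-rasG12D AOM, LSL AOM and serrated tumors. Both AOM groups were distal colon tumors induced with azoxymethane (AOM), a colon carcinogen, and the serrated tumors came from the proximal colon, with AOM named neither in their titles nor as their tumor type. All 3 groups thus carried an engineered K-ras allele. In the LSL mice it lies behind a lox-stop-lox cassette, so that it stays silent unless a recombinase cuts the stop out, and their sample titles call them wt. The labels give no Cre driver, animal age, sex or strain, and no normal colon was among the samples.

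Immediate-early genes are switched on within minutes of a growth factor, cytokine or stress signal, without new protein synthesis. One route runs from Ras through the ERK kinases to the ETS factors Elk1, Elk3 and Elk4, which act with serum response factor (SRF) on CArG boxes. Many products are transcription factors, and Fos and Jun proteins pair through leucine zippers to form AP-1, which binds target genes of growth, invasion and repair. Transcripts of immediate-early genes are typically short-lived.

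Promoters of 7 of the 10 genes were matched in the RefSeq promoter table of build GRCm38.p6 (Fos, Fosb, Jun, Junb, Ier3, Atf3 and Emp1). Egr1, Fosl1 and Ier2 had no entry there. The 150 bases before the start site are printed for the genes that open each group below, so that the sites through which AP-1 and ATF proteins could act on the family's own genes can be seen. For Emp1 only 30 bases around a site are given. Capitals mark the matches to 5 motifs searched on both strands in the 250 bases before each start. The motifs were the AP-1 site TGANTCA, the cAMP response site TGACNTCA, the ATF site TNACGTCA (which can match the same bases as the previous motif), the TATA box TATAAA, and the CArG box.
Jun, chr4:95052223-95052372, minus strand: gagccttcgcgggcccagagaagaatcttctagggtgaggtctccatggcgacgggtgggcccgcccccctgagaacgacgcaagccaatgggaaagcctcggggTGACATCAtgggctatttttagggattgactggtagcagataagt
Fos, chr12:85473740-85473889, plus strand: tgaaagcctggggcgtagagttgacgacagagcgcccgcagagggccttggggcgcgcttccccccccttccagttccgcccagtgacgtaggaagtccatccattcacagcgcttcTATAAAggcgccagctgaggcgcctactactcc
Atf3, chr1:191183334-191183483, minus strand: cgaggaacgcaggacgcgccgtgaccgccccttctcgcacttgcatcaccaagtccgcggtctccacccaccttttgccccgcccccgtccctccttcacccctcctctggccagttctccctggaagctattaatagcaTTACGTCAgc
Ier3, chr17:35821563-35821712, plus strand: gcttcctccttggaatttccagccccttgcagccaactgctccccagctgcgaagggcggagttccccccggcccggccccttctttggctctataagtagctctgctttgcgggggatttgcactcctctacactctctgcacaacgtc
Emp1, chr6:135362781-135362810, plus strand: gtgtcTGAGTCAgagggagctacaacaggg

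The cAMP response motif stood 45 to 38 bases before the start of Jun and was present in 7.49% of 32851 promoters. The ATF motif of Atf3 lay 10 to 3 bases before its start, against 2.52% of promoters with a match. Emp1 had the AP-1 motif at 145 to 139 bases and again at 25 to 19 bases before the first of its 2 listed starts, and 6.75% of promoters held it. That start (chr6:135362931) lies downstream of the annotated edge of the gene (135362550). Both matches thus fall inside the annotated gene, and the other listed start had no match to any of the 5 motifs. Fos held only the TATA box, at 33 to 28 bases, which 12.4% of promoters share. Fosb, Junb and Ier3 matched none of the 5 motifs in this window, and no promoter among the 7 genes held a CArG box there, a motif found in 1.47% of all. The listed start of Fosb (chr7:19310045, minus strand) also lies inside the annotated gene, whose edge is at 19310118. A match is a string of letters and no measurement of binding. Only exact matches were searched, so sites further upstream or differing by a base would not be seen, and a missing match does not mean a missing site.

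Serrated tumors were first set against the mean of both AOM groups, the contrast named in the series title. Emp1 rose, Ier3 and Jun fell, and the other 7 genes did not pass the test. A gene passed at an adjusted p under 0.05 in limma, with the Benjamini-Hochberg adjustment made across the 19938 genes. The 3 calls among 10 genes stand beside 9.38% of all genes called in this contrast (3.62% higher and 5.76% lower). The median log2 difference of the 10 genes was -0.26, beside 0.04 over all genes. The same 3 genes were the only ones of the 10 whose serrated arrays did not overlap the AOM arrays, 1 higher (7.24% of all genes) and 2 lower (8.93%). Tumor type, colon segment, AOM and the Ink4a/Arf genotype changed together in every contrast with serrated tumors and cannot be told apart. K-ras activation also differs by label between serrated and LSL AOM tumors, and so in part in the contrast with both AOM groups. Contrasts with the serrated group share its 3 arrays, so they are not separate evidence. In bulk tissue, fewer cells of a type and less RNA per cell cannot be told apart either.

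Emp1 encodes epithelial membrane protein 1, a small membrane-spanning protein of the PMP22 family. Its level, in log2 units of the array signal, was 10.14, 10.73 and 11.01 on the serrated arrays, 8.998, 8.90 and 8.92 on the K-rasG12D AOM arrays, and 7.97 and 7.92 on the LSL AOM arrays. Every serrated array lay above every AOM array, and every K-rasG12D AOM array lay above both LSL AOM arrays. Serrated tumors exceeded the mean of both AOM groups by 2.19 ± 0.20 (SE), or 4.55-fold (adjusted p = 0.000677 in limma). The difference was 1.69 ± 0.22 from K-rasG12D AOM tumors (adjusted p = 0.00459) and 2.68 ± 0.25 from LSL AOM tumors (adjusted p = 0.00124). Emp1 was called in these 3 contrasts whichever array was left out, with adjusted p values up to 0.0282. The spread among the serrated arrays (SD 0.45, n = 3) was larger than that within the K-rasG12D AOM (SD 0.05, n = 3) or LSL AOM group (SD 0.04, n = 2), and the fit shares 1 spread over all groups.

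Ier3, also known as IEX-1, encodes a stress-response protein tied to cell survival and to ERK signalling. On the serrated arrays it stood at 3.99, 4.35 and 5.09. On the K-rasG12D AOM arrays it stood at 6.66, 7.21 and 6.65, and on the LSL AOM arrays at 5.73 and 6.68. All serrated arrays were lower than all AOM arrays, while the AOM groups overlapped. Ier3 fell by 2.04 ± 0.31 against the mean of both AOM groups, or 4.12-fold (adjusted p = 0.00542 in limma), and by 2.36 ± 0.34 against K-rasG12D AOM tumors (0.00619). These 2 calls were kept without any single array (adjusted p up to 0.0352). Against LSL AOM tumors the gene fell by 1.73 ± 0.38 (adjusted p = 0.0344). That call was lost without LSL AOM replicate 1 (0.0750) or 2 (0.245), serrated replicate 2 (0.112), or any K-rasG12D AOM array (0.0514 to 0.0639). On serrated replicates 1 and 2 it lay near the median gene of the array (4.20 and 4.18).

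**Figure D1:**
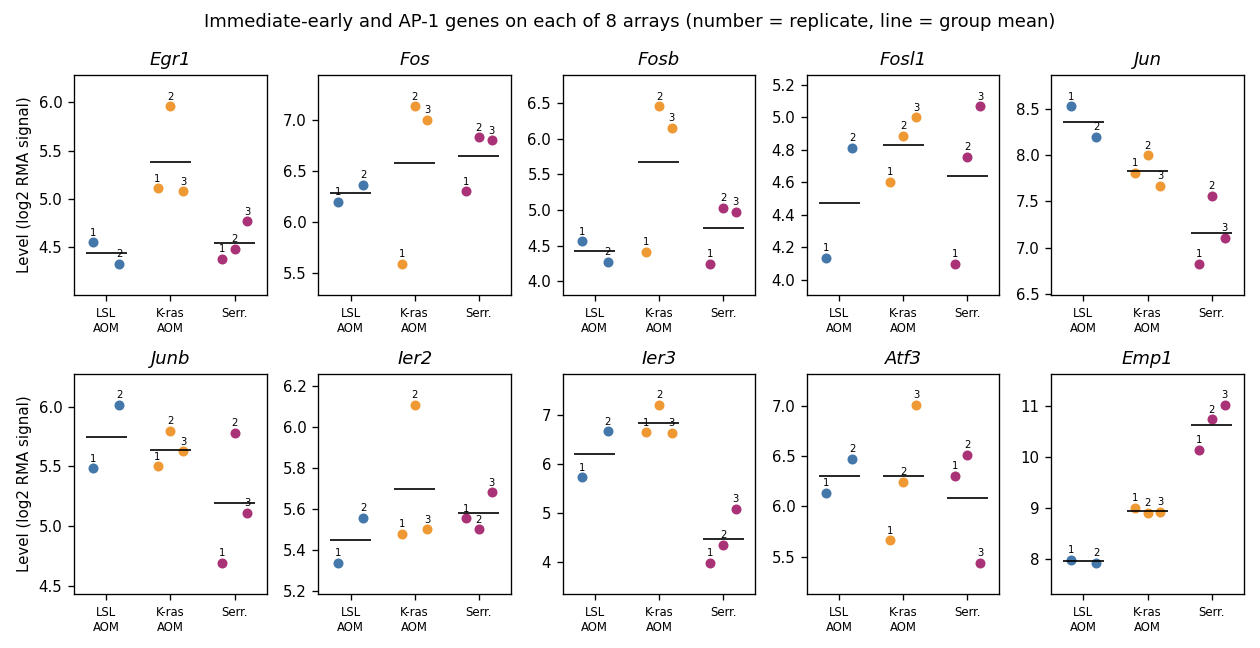
Level of each of the 10 genes (y axis, log2 RMA signal, each panel on its own scale) in LSL AOM, K-rasG12D AOM and serrated tumors (x axis); a point is 1 array with its replicate number and a line is the group mean. Emp1 is highest and Ier3 and Jun are lowest on all 3 serrated arrays, whereas Fos, Fosb, Fosl1, Junb, Ier2 and Atf3 overlap between all groups.

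The Jun family makes the subunits that every AP-1 dimer of the classical kind contains. Jun itself was at 6.82, 7.56 and 7.11 in serrated tumors, 7.81, 7.996 and 7.67 in K-rasG12D AOM tumors, and 8.53 and 8.19 in LSL AOM tumors. The groups did not overlap and ran in the order opposite to that of Emp1. Over all genes, 2.09% separated the 3 groups in the order of Jun and 1.27% in that of Emp1. Jun fell by 0.93 ± 0.20 in serrated tumors against the mean of both AOM groups, or 1.90-fold (adjusted p = 0.0231 in limma). This call was lost without K-rasG12D AOM replicate 1 (adjusted p = 0.0562) or 2 (0.0595) or without LSL AOM replicate 1 (0.0882) or 2 (0.0506). Against LSL AOM tumors Jun fell by 1.20 ± 0.25 (0.0272), which was lost without K-rasG12D AOM replicate 1 (0.0583) or either LSL AOM array (0.111 to 0.211). Against K-rasG12D AOM tumors the difference was -0.66 ± 0.22 and did not pass (0.117).

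Junb, a Jun relative that is a weaker activator, was at 4.69, 5.78 and 5.11 in serrated tumors, 5.50, 5.796 and 5.63 in K-rasG12D AOM tumors, and 5.48 and 6.01 in LSL AOM tumors. Serrated replicate 2 lay among the AOM arrays and the other serrated arrays below them. The difference from both AOM groups was -0.50 ± 0.25 (95% interval -1.07 to 0.07, adjusted p = 0.258 in limma). In a list of 14 other AP-1 and related leucine zipper genes, 13 were measured, 1 fell and none rose, beside 5.76% and 3.62% of all genes. The median of these 13 genes was -0.06, and the list held Jund and Fosl2 among those that did not pass. The gene that fell was Mafg, a small Maf protein, by 0.59 ± 0.15 (adjusted p = 0.0409), and it passed against neither K-rasG12D AOM (0.0667) nor LSL AOM tumors alone (0.109). Its call was lost whichever array was left out (adjusted p 0.0544 to 0.120).

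The Fos family supplies the other AP-1 partners, and none of its 3 genes passed. Fos was at 6.30, 6.83 and 6.80 in serrated tumors, 5.59, 7.14 and 7.004 in K-rasG12D AOM tumors, and 6.20 and 6.37 in LSL AOM tumors. The lowest and the highest of the 8 arrays were thus both K-rasG12D AOM tumors. Serrated minus both AOM groups came to 0.22 ± 0.34 (95% interval -0.56 to 0.99, adjusted p = 0.723 in limma). Its spread within groups, an SD of 0.58, was above that of 93.7% of all genes. Fosl1, which encodes Fra-1, ran from 4.10 to 5.07 in serrated tumors, 4.60 to 5.0 in K-rasG12D AOM tumors and 4.14 to 4.81 in LSL AOM tumors. Its difference was -0.01 ± 0.25 (95% interval -0.59 to 0.57, adjusted p = 0.982).

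Fosb was at 4.25, 5.03 and 4.98 in serrated tumors, 4.41, 6.46 and 6.15 in K-rasG12D AOM tumors, and 4.56 and 4.28 in LSL AOM tumors. K-rasG12D AOM replicates 2 and 3 stood above all other arrays, and replicate 1 of that group lay within the range of the others. The difference from K-rasG12D AOM tumors was -0.92 ± 0.48 (adjusted p = 0.311 in limma). Without K-rasG12D AOM replicate 1 it was -1.55 and passed (0.0343), so this 1 array decided the call.

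Egr1 encodes a zinc finger factor that is among the first genes induced by ERK signalling. It was at 5.11, 5.96 and 5.08 in K-rasG12D AOM tumors, 4.38, 4.49 and 4.77 in serrated tumors, and 4.55 and 4.33 in LSL AOM tumors. All K-rasG12D AOM arrays were higher than the other 5 arrays, among which serrated and LSL AOM tumors overlapped. Serrated minus K-rasG12D AOM was -0.84 ± 0.25, or 1.79-fold lower, and did not pass (adjusted p = 0.0901 in limma). In that contrast 3 of the 10 genes had serrated arrays wholly below the K-rasG12D AOM arrays, Egr1, Jun and Ier3, beside 13.9% of all genes. Emp1 alone lay wholly above, as did 12% of all genes. By the test 2 of the 10 genes passed there, beside 6.45% of all genes: Emp1 higher (2.46%) and Ier3 lower (3.99%). At an unadjusted p under 0.05 were 4 of the 10, beside 21.8%. Against LSL AOM tumors 3 passed, beside 5.71%: Emp1 higher (2.31%) and Jun and Ier3 lower (3.4%). The same 3 genes had arrays that did not overlap in that contrast, as in 15.6% of all genes higher and 17.4% lower. They were also the only members at an unadjusted p under 0.05, beside 20.3%.

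Atf3 encodes a stress-induced leucine zipper factor and Ier2 a nuclear protein of the immediate-early response. Atf3 ran from 5.44 to 6.51 in serrated tumors, 5.66 to 7.01 in K-rasG12D AOM tumors and 6.13 to 6.47 in LSL AOM tumors. The LSL AOM arrays lay within the range of both other groups, and the difference from both AOM groups was -0.22 ± 0.34 (95% interval -0.98 to 0.55, adjusted p = 0.719 in limma). Ier2 stayed between 5.34 and 6.11 on all 8 arrays, with a difference of 0.01 ± 0.18 (95% interval -0.41 to 0.43, 0.983).

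**Figure D2:**
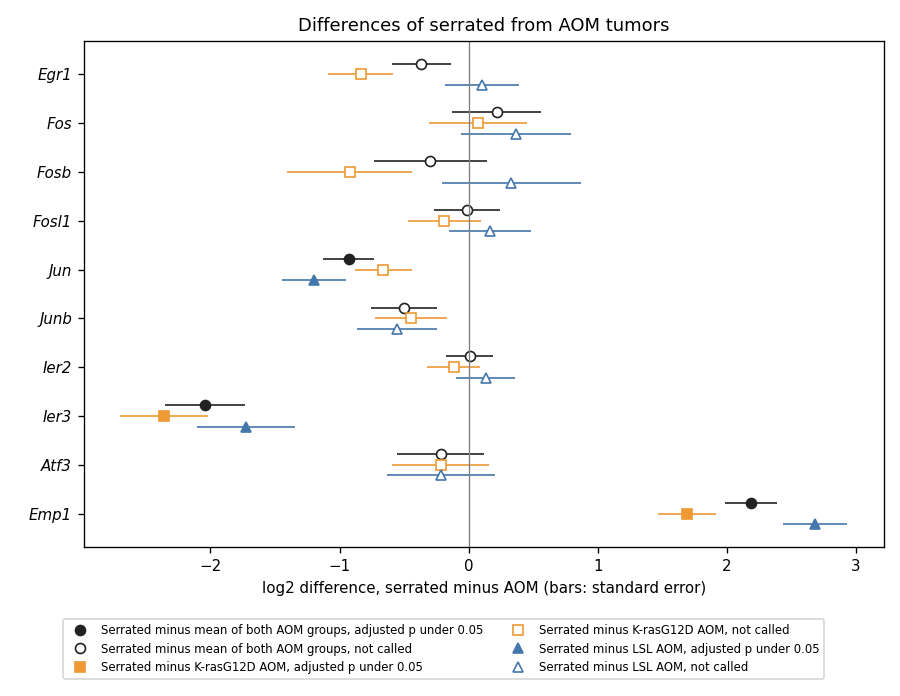
Log2 difference of serrated from AOM tumors (x axis) for each gene (y axis), against the mean of both AOM groups, K-rasG12D AOM and LSL AOM tumors, with bars of 1 standard error; filled symbols passed at an adjusted p under 0.05. Emp1 lies at 1.69 to 2.68 and Ier3 at -2.36 to -1.73, all filled, and Jun is filled in 2 of its 3 contrasts.

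K-rasG12D AOM and LSL AOM tumors, which share carcinogen and colon segment, differ in the labels by K-ras genotype alone. None of the 10 genes passed in limma, nor did any of the 19938 genes (0% called). At an unadjusted p under 0.05 stood 3 of the 10 genes, Emp1, Egr1 and Fosb, beside 8.36% of all genes. Emp1 was higher in K-rasG12D AOM tumors by 0.99 ± 0.25 (adjusted p = 0.306) and Egr1 by 0.94 ± 0.28 (0.384). Neither gene overlapped between these groups, and 16.4% of all genes were higher in that way. Fosb had the largest difference of the 10 genes, 1.25 ± 0.54 (0.586), but its arrays overlapped. Jun differed by -0.54 ± 0.25 (0.617), its K-rasG12D AOM arrays below both LSL AOM arrays, as in 15.7% of all genes. With 3 arrays against 2, the fit recovered 27% of 2-fold changes in this contrast in simulated data with 200 changed genes. Emp1 differed 1.99-fold and Egr1 1.92-fold here. Recovery depends on how many genes truly change, which is not known, so the 27% is no measure of power for these 2 genes.

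Array by array, several of the genes were highest or lowest on the same array. K-rasG12D AOM replicate 2 was the highest array for 5 of the 10 genes, and 9 of the 10 stood above their own mean over the 8 arrays there. Serrated replicate 1 was the lowest array for 5 of the 10, with 2 above their mean, and this array also had the smallest spread over all genes (SD 1.77, against 2.00 to 2.13 elsewhere). The share of all genes highest or lowest on each array was not worked out. These counts therefore cannot be told apart from shifts of the whole array. Likeness between genes was measured as the root mean square difference between profiles over the 8 arrays, each gene centred on its own mean. By this measure the 10 genes lay 0.32 (Fosl1 and Ier2) to 2.06 (Ier3 and Emp1) log2 units from one another. Their mean profile averages rises and falls, so it is not one that all of them follow. Nearest to that mean profile were Tanc1, Bbx, Wwc2, Stfa2 and Sema7a, at 0.11 to 0.12 log2 units, where the median gene was at 0.42. Stfa2 was dim, at 1.26 to 1.99. Nearest to Fos alone were Plcb1 (0.19), Sfrp1 (0.21), Rac2 (0.23), Ephx3 (0.24) and Dusp1 (0.26), with the median gene at 0.57. Genes picked in this way lie nearer than the median gene by the choice itself. Dusp1, an immediate-early phosphatase that switches off MAP kinases, was at 6.24, 7.85 and 7.87 in K-rasG12D AOM tumors, 6.89, 7.27 and 6.85 in serrated tumors, and 6.48 and 6.59 in LSL AOM tumors. Dusp1 was picked for its likeness to Fos on these same arrays, so its pattern is no separate evidence. Like Fos and Fosb, it was high on K-rasG12D AOM replicates 2 and 3 and low on replicate 1.

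Markers of several cell types moved with this split. The mean level of 10 neutrophil markers was 3.98 on K-rasG12D AOM replicate 1, 5.10 on replicate 2 and 4.95 on replicate 3, against 3.40 to 3.94 in LSL AOM and 3.40 to 3.65 in serrated tumors. Replicate 1 was thus low only within its own group. Among these markers Ly6g, at 9.76, 9.62 and 10.26 on replicates 1 to 3, did not follow the split. S100a8, S100a9, Csf3r, Cxcr2, Retnlg and Mmp8 were lower on replicate 1 than on replicates 2 and 3. The mean of 10 macrophage markers was also lower on replicate 1 (5.86) than on replicates 2 (6.48) and 3 (6.30). So were the means of the fibroblast (6.498, against 6.99 and 6.92), endothelial (5.02, against 5.36 and 5.25) and T and B cell markers (3.24, against 3.51 and 3.88). Smooth muscle markers, at 5.18, 4.96 and 5.64, did not follow the split, and epithelial markers, at 9.86, 9.68 and 9.72, ran the other way. The part of these cell types in the levels of Fos, Fosb and Dusp1 was not tested. The mean of 9 heat shock genes was 7.89, 7.80 and 7.92 on the same 3 arrays and so did not follow the split. It was 8.44 to 8.51 in LSL AOM tumors and 6.85, 7.28 and 8.15 on the serrated arrays. Of these 9 genes 2 fell in serrated tumors, beside 5.76% of all genes. They were the chaperone genes Hspb1, by 2.19 ± 0.31 (adjusted p = 0.00424 in limma), and Hsp90aa1, by 1.38 ± 0.33 (0.0333). Hspb1 differed by -3.38 ± 0.38 from LSL AOM tumors (0.00298) but by -0.99 ± 0.34 from K-rasG12D AOM tumors, which did not pass (0.130), and its call was lost with all AOM arrays as 1 group (0.111). Hsp90aa1 did not pass against K-rasG12D AOM tumors either (0.127). The call of Hsp90aa1 was lost without any single array other than serrated replicate 3 (0.0565 to 0.137), and without that array 6 of the 9 passed, while calls over all genes went from 1871 to 3874.

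**Figure D3:**
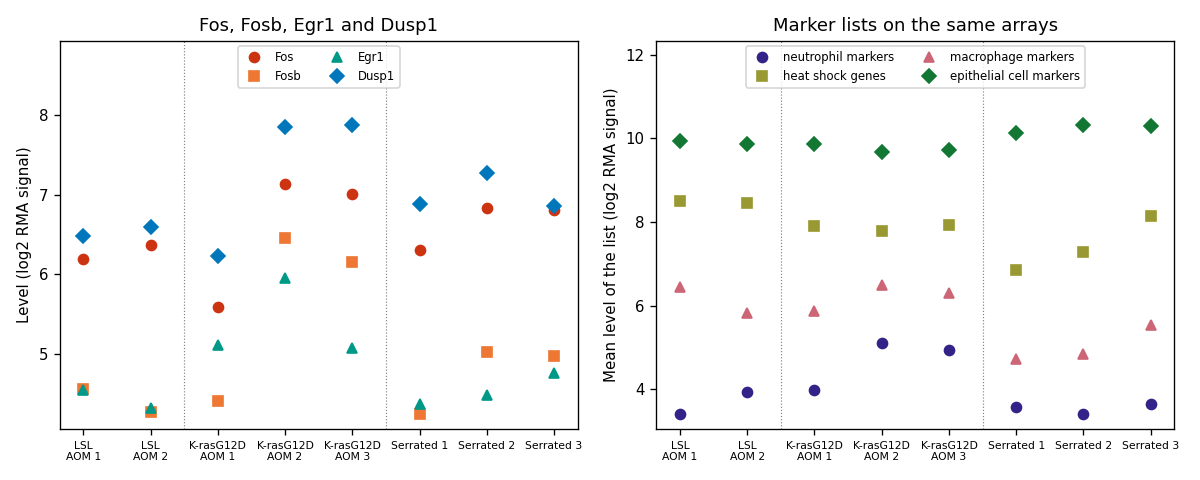
Left, levels of Fos, Fosb, Egr1 and Dusp1 on each array; right, mean levels of the neutrophil, macrophage, epithelial and heat shock lists on the same arrays (y axes, log2 RMA signal; x axes, arrays by group). Dusp1 was picked for its likeness to Fos on these arrays. Within the K-rasG12D AOM group, Fos, Fosb, Dusp1 and the neutrophil mean are lower on replicate 1 than on replicates 2 and 3, while the heat shock list stays between 7.80 and 7.92. The neutrophil mean on replicate 1 (3.98) is still above every LSL AOM and serrated array (up to 3.94).

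Other immediate-early genes changed in both directions in serrated tumors. Of 34 such genes measured, 2 rose (beside 3.62% of all genes), 4 fell (beside 5.76%) and 28 did not pass against both AOM groups. The median was -0.06 beside 0.04 over all genes. Both that rose were Krüppel-like factors. Klf4, a factor of differentiated gut epithelium, was at 9.03, 9.04 and 8.34 in serrated tumors and between 6.32 and 7.54 in AOM tumors, a rise of 1.93 ± 0.27 (adjusted p = 0.00398 in limma). Klf6 was at 8.90, 9.16 and 8.86 against 7.53 to 8.39, a rise of 1.04 ± 0.16 (0.00674). Neither gene overlapped between serrated and AOM arrays, and both passed against the mean of both AOM groups whichever array was left out (adjusted p up to 0.0411).

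The immediate-early genes that fell encode a stress-response protein, a kinase, a matrix protein and a GTPase. Gadd45b, which binds stress kinases, was at 5.77, 5.97 and 5.59 in serrated tumors and 6.85 to 7.44 in AOM tumors, a fall of 1.27 ± 0.18 (adjusted p = 0.00463 in limma) that passed without any single array (up to 0.0232). The polo-like kinase Plk2 was at 4.30, 5.33 and 6.38 against 6.63 to 8.37, and Ccn1, a secreted matrix protein also called Cyr61, at 4.99, 4.71 and 6.43 against 6.995 to 8.01. Serrated replicate 3 was the highest of its group for both, yet below every AOM array. Plk2 fell by 2.12 ± 0.42 (0.0178) and Ccn1 by 1.98 ± 0.39 (0.0176). Both calls were lost without serrated replicate 2 (0.0775 and 0.0822) or LSL AOM replicate 1 (0.0724 and 0.0689), and that of Ccn1 also without LSL AOM replicate 2 (0.0529). Plk2 and the GTPase gene Rhob were named after their values were seen. Rhob fell by 0.79 ± 0.18 (0.0310), a call lost without serrated replicate 2 (0.136), K-rasG12D AOM replicate 1 or 2 (0.0776 and 0.0763) or either LSL AOM array (0.0516 to 0.111), and with quantile normalization (0.0828) or median centring (0.0518). The count of 6 calls became 3 without serrated replicate 2 or LSL AOM replicate 1, and 10 without serrated replicate 3. Calls over all 19938 genes moved the same way, from 1871 to 643, 797 and 3874. Against K-rasG12D AOM tumors alone 2 of the 34 rose and 3 fell (6.45% of all genes passed), and against LSL AOM tumors 2 rose and 1, Gadd45b, fell (5.71%). The call of Gadd45b against LSL AOM tumors (adjusted p = 0.0185 in limma) was lost when only serrated and LSL AOM arrays were fitted (0.0532). Plk2 (adjusted p = 0.115 in limma), Ccn1 (0.0695) and Rhob (0.0767) did not pass against LSL AOM tumors. Rhob did not pass against K-rasG12D AOM tumors either (0.0594). Without single arrays these counts of 5 and 3 ran from 1 to 7 and from 0 to 7. Klf4 and Klf6 each lost their call in both of these contrasts without at least 1 of the arrays (adjusted p up to 0.0976 for Klf4 and 0.145 for Klf6).

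Of 10 genes of SRF, its ETS partners and the kinases and factors beside them, 2 fell (beside 5.76% of all genes), none rose and 8 did not pass. The median was -0.31 beside 0.04 over all genes. Those that fell were Elk1 and Elk3. Both also passed against K-rasG12D AOM tumors alone (adjusted p = 0.0137 and 0.0101 in limma). Against LSL AOM tumors alone none of the 10 passed, with Elk1 at -0.70 (0.0959) and Elk3 at -0.40 (0.425). Elk1 was at 4.0, 3.73 and 4.27 in serrated tumors and 4.55 to 5.23 in AOM tumors, a fall of 0.90 ± 0.17 (adjusted p = 0.0148 in limma) that was lost without serrated replicate 2 (0.0775) or LSL AOM replicate 2 (0.0598). Elk3 fell by 0.89 ± 0.20 (0.0282) with overlap, from 6.84, 7.07 and 7.24 in K-rasG12D AOM and 6.15 and 5.98 in LSL AOM to 5.25, 5.71 and 6.04 in serrated tumors. Its call was lost without K-rasG12D AOM replicate 2 or 3, serrated replicate 2 or either LSL AOM array (0.0600 to 0.0998), and with all AOM arrays as 1 group (0.0859). Without serrated replicate 2 or LSL AOM replicate 2, none of the 10 passed, and without K-rasG12D AOM replicate 2 or 3 or LSL AOM replicate 1 only 1 did.

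AP-1 target genes lay lower in serrated tumors in 13 of 16 measured, beside 9011 of all 19938 genes, with a median of -1.39 beside 0.04 over all genes. Of these 16, 5 fell, none rose and 11 did not pass, beside 5.76% of all genes that fell and 3.62% that rose. The list was chosen with earlier results of these data known, so it is no independent evidence. Lif, a cytokine of the interleukin-6 family, was at 3.19, 2.82 and 2.86 in serrated tumors and 3.77 to 4.91 in AOM tumors, a fall of 1.27 ± 0.22 (adjusted p = 0.00916 in limma). Ccnd1, which encodes cyclin D1, was at 7.03, 7.35 and 8.33 against 8.91 to 9.35, a fall of 1.47 ± 0.28 (0.0148). Hmox1, the heme oxygenase of oxidative stress, fell by 1.59 ± 0.30 (0.0154) and was named after its values were seen. The protease inhibitor Timp1 and the matrix protease Mmp9 fell by 1.47 ± 0.20 (0.00355) and 2.17 ± 0.32 (0.00539). Arrays of serrated and AOM tumors did not overlap for any of these 5 genes, and 8.93% of all genes were lower in that way. Against LSL AOM tumors alone Lif (adjusted p = 0.0968 in limma) and Ccnd1 (0.0577) did not pass. Hmox1 did not pass against K-rasG12D AOM tumors alone (0.113). Timp1 passed against LSL AOM tumors (0.0332), but not with quantile normalization (0.0510) or with only serrated and LSL AOM arrays fitted (0.121). Mmp9 passed against K-rasG12D AOM tumors (0.0382), but not with median centring (0.0603). Its call there was also lost without serrated replicate 1 (0.0719) or 2 (0.145) or any K-rasG12D AOM array (0.0994 to 0.130). Several of the 5 genes are also targets of other pathways. Without serrated replicate 2 the calls of Lif (0.0526), Ccnd1 (0.0779) and Hmox1 (0.0774) were lost and 2 of the 16 passed. Without LSL AOM replicate 1 or 2, Ccnd1 (0.0561 and 0.0544) and Hmox1 (0.0554 and 0.0582) were lost and 3 passed, whereas 11 passed without serrated replicate 3. Calls over all genes were 643 without serrated replicate 2, 797 and 895 without LSL AOM replicate 1 or 2, and 3874 without serrated replicate 3. Hmox1 also lost its call with all AOM arrays as 1 group (0.0537). Averaged over the 16 targets, serrated replicates 1 and 2 stood at 4.53 and 4.77 and replicate 3 at 6.07, beside 6.06 to 6.55 in AOM tumors.

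**Figure D4:**
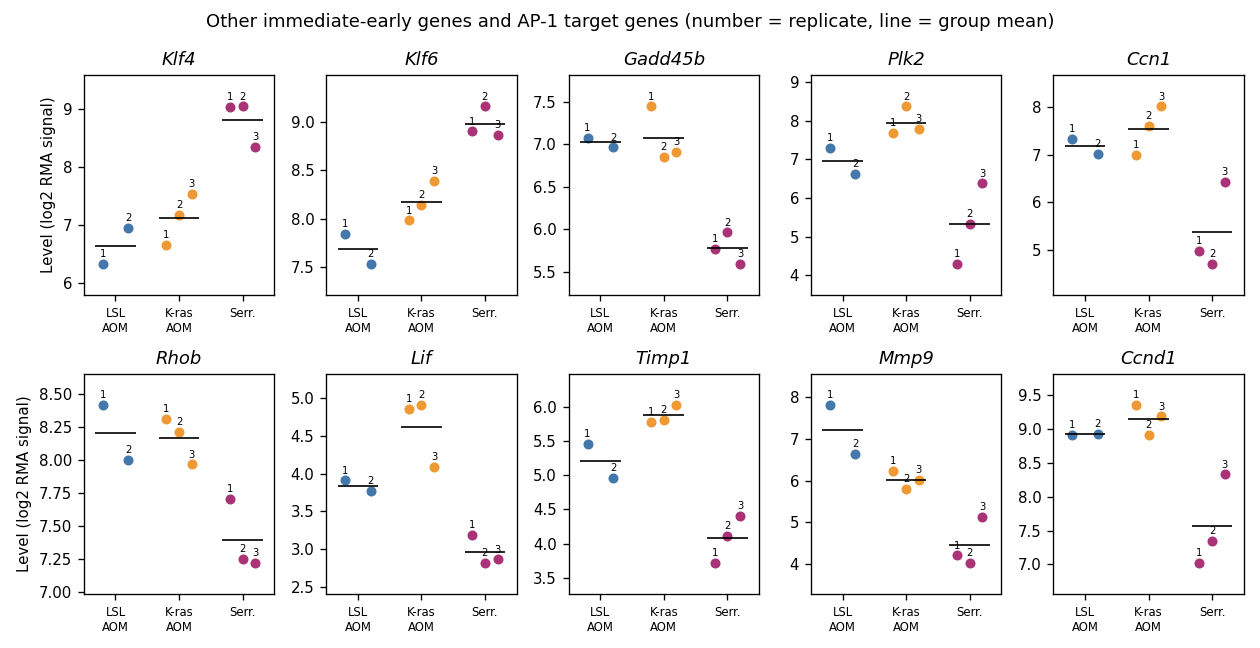
Levels (y axis, log2 RMA signal, each panel on its own scale) of 6 further immediate-early genes and 4 AP-1 target genes in LSL AOM, K-rasG12D AOM and serrated tumors (x axis); a point is 1 array with its replicate number and a line is the group mean. Klf4 and Klf6 are higher and the other 8 genes lower on every serrated array than on every AOM array.

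Markers of the cell types that a tumor piece can hold differed between the same groups. The mean of 10 epithelial markers was 10.13 to 10.32 in serrated and 9.68 to 9.94 in AOM tumors, and 1 of them, Krt20, passed (a rise of 2.53 ± 0.49, adjusted p = 0.0162 in limma), with none passing without serrated replicate 2 or LSL AOM replicate 1. Krt20 had by far the largest difference of the 10, whereas Epcam (0.05), Cdh1 (-0.01) and Krt19 (0.04) were near 0 and Cldn3 was at -0.26. Against LSL AOM tumors alone Krt20 did not pass (adjusted p = 0.0567). Of 10 macrophage markers 6 fell, beside 5.76% of all genes, and 2 did against LSL AOM tumors alone. The mean of the 10 was 4.73 to 5.53 in serrated and 5.82 to 6.48 in AOM tumors. The 6 calls became 1 without serrated replicate 2, 2 without LSL AOM replicate 1, and 3 without K-rasG12D AOM replicate 2 or 3 or serrated replicate 1. Of 10 fibroblast markers 3 fell, with means of 5.57 to 6.47 and 6.29 to 7.16, and the count ran from 0 without serrated replicate 2 to 6 without serrated replicate 3. Among 10 smooth muscle markers Cald1 fell, with none passing without K-rasG12D AOM replicate 1 or 2, serrated replicate 2 or LSL AOM replicate 1. Against the mean of both AOM groups, none of the 10 endothelial, 10 neutrophil or 9 T and B cell markers passed (1, 3 and 1 at an unadjusted p under 0.05). Against K-rasG12D AOM tumors alone 2 of the 10 neutrophil markers fell, beside 3.99% of all genes. They were S100a8 (-2.13 ± 0.38, adjusted p = 0.0151 in limma) and Ly6g (-1.93 ± 0.44, 0.0368). Against LSL AOM tumors 1 of the 9 T and B cell markers, the T cell gene Cd3g, rose (1.59 ± 0.37, 0.0417), beside 2.31% of all genes. With other processing or grouping these counts ran from 1 to 7 and from 0 to 1. Both also changed when single arrays were left out. Immediate-early genes can be induced in all of these cell types. The part of these cells in the falls, and of epithelial content in the rise of Emp1, was not tested.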

How the data were processed

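The deposited values are log2 expression signals from robust multi-array average (RMA), made with GCOS and RMA, per the submitters' processing notes. Sources used here give no versions, RMA settings or genome build. The number of arrays limits the precision, and the labels leave unsaid whether each sample is its own animal, so p-values reflect only how these samples vary, which may be technical. Of 35557 probe sets, 21789 had 1 gene symbol, and the brightest by mean over 8 arrays was taken for each of the 999 genes with several. All 19938 genes entered 1 fit of 3 group means in limma 3.58.1 (R 4.3.3) with 5 residual degrees of freedom, with an adjusted p under 0.05 as passing. The fit was tested on simulated data with 200 changed genes in each of 5 runs. Between serrated and both AOM groups, 46.2% of 2-fold and 88.6% of 4-fold changes were recovered. Recovery depends on how many genes truly change, and 1871 genes were called in the real contrast. These shares are therefore no measure of its power. All 10 genes are named, and from other lists up to 4 passing genes with the smallest adjusted p. Of alike genes, 5 per profile are named. The genes and the 12 other lists were chosen with earlier results of these data known. Alternatives were an intensity trend, a robust prior, quantile normalization, median centring, array weights, leaving out the dimmest 40% of genes, the mean of a gene's probe sets, other groupings and leaving out each array. Errors beside differences are standard errors. Promoter sequences are from RefSeq.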

Additional observations from a re-analysis of the deposited data

How the results depend on the processing

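Of the 10 genes, 3 passed between serrated and both AOM groups, and 2 to 4 did under every alternative. Emp1 and Ier3 passed in all of them. For serrated against LSL AOM tumors the count of 3 became 1 when only these 2 groups were fitted, and ran from 1 to 3 when single arrays were left out. For K-rasG12D AOM against LSL AOM tumors it was 1 (Emp1, adjusted p = 0.0412) with array weights and 0 otherwise. Array weights could not be fitted to convergence: serrated replicate 2 got 25.6 and the others 0.17 to 2.01, and 10334 of all genes passed, against 1871 without weights. With these weights Egr1 passed between serrated and both AOM groups (-0.38, 0.0428) and against K-rasG12D AOM tumors (-0.82, 0.00163). Counts with weights were 21 against 6 for other immediate-early genes, 14 against 5 for AP-1 targets, 9 against 1 for other AP-1 genes and 5 against 2 for SRF genes. Among named genes of other lists against both AOM groups, Mafg lost its call with an intensity trend (0.0664), quantile normalization (0.0869) and median centring (0.0627), and Rhob with the last 2. Elk3, Hmox1 and Hspb1 lost theirs with all AOM arrays as 1 group.

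Signs turned only among differences that did not pass. Against both AOM groups these were, with array weights, Fosl1 (0.14), Fosb (0.17), Junb (0.092), Ier2 (-0.037) and Atf3 (0.30), with median centring Fosl1 (0.048), and with all AOM arrays as 1 group Ier2 (-0.017). Against K-rasG12D AOM tumors they were Junb (0.17) and Atf3 (0.40) with array weights and Ier2 (0.023) with quantile normalization. Against LSL AOM tumors they were Junb (0.016) and Atf3 (0.20) with array weights. Between the AOM groups Atf3 turned with quantile normalization (-0.022), median centring (-0.062) and array weights (-0.20), and Fos with array weights (-0.0091). Without single arrays the differences from both AOM groups ran from -0.030 to 0.39 for Fos, -0.22 to 0.26 for Fosl1, -0.047 to 0.11 for Ier2 and -0.43 to 0.10 for Atf3. From K-rasG12D AOM tumors they ran from -0.42 to 0.35 for Fos, -0.40 to 0.083 for Fosl1, -0.23 to 0.090 for Ier2 and -0.54 to 0.13 for Atf3. From LSL AOM tumors they ran from -0.0088 to 0.22 for Egr1, -0.17 to 0.51 for Fosl1 and -0.43 to 0.11 for Atf3. Between the AOM groups they ran from -0.37 to 0.16 for Junb and -0.35 to 0.32 for Atf3. The causes were not tested. No paired analysis was possible because the labels give no replicate numbers shared between groups.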
